A study of Mus musculus with 9 samples.

Results

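CTCF signal was lower in *Smchd1* del/del (null) neural stem cells (NSCs) than in control NSCs at 329 autosomal peaks, of 225769 merged CTCF peaks in all. A peak was chosen when it lay on chromosomes 1 to 19, the mean of its values in the 3 genotypes was at least -0.5, and the null value was at least 1 below the control value. Each value is the log2 of the reads over the whole peak, scaled per M of library reads (log2 RPM), so a difference of 1 is 2-fold. Of 107125 autosomal peaks at or above this floor, 0.307% met the rule. The lowered peaks were mostly weak, and few of them held the core of the CTCF motif. The largest difference was at the promoter of *Depdc1b*, a gene of dividing cells, and a tall lowered peak lay beside the start of *Pdgfra*, the PDGF receptor of oligodendrocyte precursors. The *Pdgfra* peak was the only lowered 1 of 41 eligible peaks at astrocyte and oligodendrocyte genes. In MommeD43-GFP NSCs the median lowered peak lay between its null and control values, nearer to control.

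The cells were primary female NSCs grown from cortices of E14.5 embryos on a C57Bl/6 background, and CTCF was mapped by ChIP-seq. The null lines (*Smchd1* del/del, 2 libraries) were made in culture by giving flox-flox cells an MSCV-Cre-puromycin retrovirus, followed by drug selection. The MommeD43-GFP lines (*Smchd1* MommeD43-GFP/MommeD43-GFP, 3 libraries) carry the MommeD43 missense mutation in a GFP-tagged allele, and the control lines (*Smchd1* GFP/GFP, 3 libraries) carry the tagged allele without it. Null cells lack the tag, and neither other genotype received Cre or the drug, so loss of SMCHD1, the Cre treatment and the missing tag cannot be told apart. There was 1 input library, from a control line, with no value in the peak table. The table gives 1 value per genotype, the authors' mean over its libraries, so no SD, n or p-value stands behind any difference below. The values imply libraries of 49.98 M reads in null, 49.2 M in MommeD43-GFP and 41.7 M in control cells (geometric means), and counting errors (SE) were worked out from the reads behind each value. They cover read counting only, not the spread between lines.

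CTCF is a zinc finger protein that binds a long DNA motif. It stops cohesin at the borders of chromatin loops and can insulate genes from neighbouring enhancers, and at some sites methylation of CpG within the motif keeps it off. SMCHD1 is a non-canonical SMC protein that maintains silencing of the inactive X chromosome and of autosomal gene clusters such as imprinted regions and protocadherins. ChIP-seq reads also gather weakly at open promoters and enhancers without a motif.

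Sequences of 3 lowered peaks are shown first because these peaks carry the differences described next. They are from RefSeq GRCm38.p6, plus strand, with CpG in capitals. For *Depdc1b* they are the 300 bases just before the first annotated start (chr13:108316032-108316331, start at 108316332), which lie inside the peak and hold 24 CpG at a GC content of 62.7%. An exon of the non-coding RNA *Gm2822*, transcribed the other way, overlaps this stretch. For *Pdgfra* (chr5:75150601-75150900, 11 CpG) and *Zfp365* (chr10:67876051-67876350, 4 CpG) they are the central 300 bases of the peak. Of the *Zfp365* stretch 54.7% was masked as repeat in the genome file, against 16% for *Pdgfra* and 7.33% for *Depdc1b*.
Depdc1b: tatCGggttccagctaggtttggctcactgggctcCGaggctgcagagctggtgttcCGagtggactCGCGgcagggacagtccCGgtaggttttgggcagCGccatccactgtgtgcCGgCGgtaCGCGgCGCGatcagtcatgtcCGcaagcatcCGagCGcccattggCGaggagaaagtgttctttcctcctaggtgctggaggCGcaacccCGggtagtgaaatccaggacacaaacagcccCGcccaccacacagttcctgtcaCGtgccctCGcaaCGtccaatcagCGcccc
Pdgfra: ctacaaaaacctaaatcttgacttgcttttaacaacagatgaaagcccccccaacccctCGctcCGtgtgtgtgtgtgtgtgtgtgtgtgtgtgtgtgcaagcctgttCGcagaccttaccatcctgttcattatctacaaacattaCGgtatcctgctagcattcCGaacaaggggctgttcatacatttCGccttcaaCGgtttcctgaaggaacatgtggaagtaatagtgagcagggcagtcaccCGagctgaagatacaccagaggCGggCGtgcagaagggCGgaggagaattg
Zfp365: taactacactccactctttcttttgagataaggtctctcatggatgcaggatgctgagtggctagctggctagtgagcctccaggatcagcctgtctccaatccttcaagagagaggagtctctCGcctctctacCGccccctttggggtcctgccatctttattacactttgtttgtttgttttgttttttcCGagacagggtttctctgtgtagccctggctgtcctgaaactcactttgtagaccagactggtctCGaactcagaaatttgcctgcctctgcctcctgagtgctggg

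The values in the next paragraphs chose the peaks and are given as a description. The *Depdc1b* promoter peak (chr13:108315601-108317100), which overlaps the start of this DEP domain gene, was at 0.12 in null, 2.17 in MommeD43-GFP and 2.18 in control cells. Behind these values stood 54.4, 222 and 189 reads per library in the same order of genotypes. Null minus control was -2.06 on the log2 scale (counting SE 0.15), while MommeD43-GFP cells differed from control by -0.01 (SE 0.08). The other 28 peaks within 100 kb had null minus control values from -1.04 to 1.04 with a median of -0.05, and 2 of them were at -0.5 or lower. The next peak, inside the gene and 4.88 kb away, was at -0.57 in null, -0.44 in MommeD43-GFP and -0.42 in control cells.

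The peak 22207 bp from the nearest start of the zinc finger gene *Zfp365* (chr10:67875601-67876800) was at -1.22 in null, 1.02 in MommeD43-GFP and 0.71 in control cells. Null minus control was -1.93 (SE 0.24), and MommeD43-GFP minus control was 0.31 (SE 0.13). A taller peak 3.9 kb from it was nearly level across genotypes, at 2.62 in null, 2.58 in MommeD43-GFP and 2.38 in control cells. The 20 other peaks within 100 kb had a median null minus control of 0.07, with a range of -0.56 to 0.82.

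At *Pdgfra* the lowered peak (chr5:75149551-75151950) ended 342 bp from an annotated start. It was at 1.02 in null, 2.297 in MommeD43-GFP and 2.28 in control cells, a null minus control value of -1.26 (SE 0.12). Both GFP-tagged genotypes were within counting error of each other (0.01, SE 0.08). The much taller peak on the far side of that annotated start (chr5:75152551-75159300), centred 5.18 kb away, was at 4.28 in null, 4.24 in MommeD43-GFP and 4.42 in control cells. Among the 32 other peaks within 100 kb the null minus control values ran from -0.83 to 1.17 with a median of -0.14, and 5 were at -0.5 or lower.

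**Figure D1:**
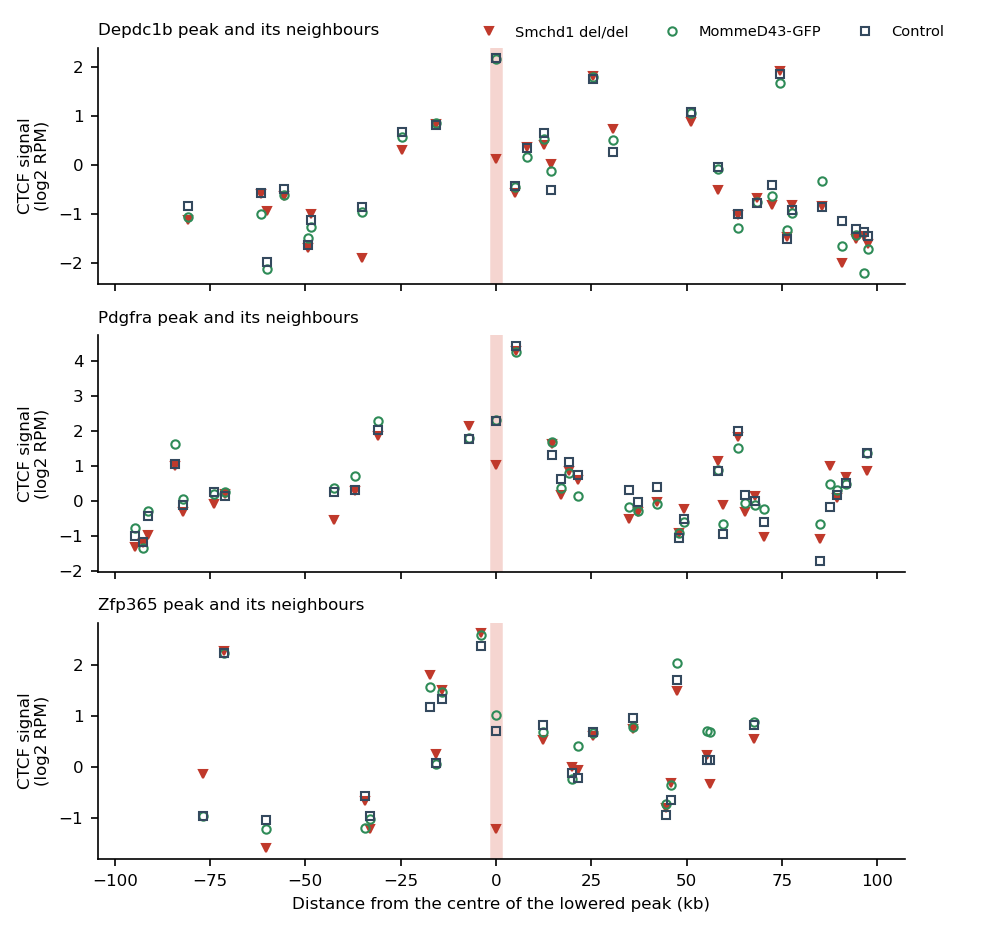
CTCF signal (log2 RPM, y axis) at every peak within 100 kb of the lowered peaks at *Depdc1b*, *Pdgfra* and *Zfp365*, by distance from the lowered peak's centre (kb, x axis), with filled red triangles for *Smchd1* del/del, green circles for MommeD43-GFP and dark squares for control. At 0 kb, marked by the shaded bar, the triangle stands apart from both other symbols, at 0.12 for *Depdc1b*, 1.02 for *Pdgfra* and -1.22 for *Zfp365*.

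These peaks were the far end of a narrow range. Null minus control lay between -1 and -1.1 at 186 of the 329 peaks (56.5%), between -1.1 and -1.2 at 81, between -1.2 and -1.5 at 57, and below -1.5 at 5. A further 412 peaks lay from -1 to -0.9, just outside the threshold. The difference was 3.87 to 16.4 times its counting SE, with a median of 4.84 times. The rule largely sets the low end of this range. It asks for a difference of at least 1, and above the floor the SE of lowered peaks was at most 0.26. The ratio is therefore no test of these peaks. The peaks just inside the threshold were in *Vps33a*, a gene of vesicle sorting (-0.60 in null, -0.04 in MommeD43-GFP and 0.40 in control), near *Gm49720* (-0.72, -0.30 and 0.28) and in *Ptprn2*, a gene of secretory granules (-1.14, -0.03 and -0.14). Just outside were peaks named for *Gm19554* (0.11, 1.29 and 1.11, in the same order of genotypes), *Atxn7l1* (-0.86, -0.31 and 0.14) and *Gm38123* (0.19, 0.72 and 1.19). At the floor, *Tspear*, *Wdr47* and *Olfr1339* were just inside, with means of -0.50 each to 2 decimals. Just outside it were a peak with no gene on chromosome 6, *Gm11908* and *Apol10b*, at -0.50 each.

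After *Depdc1b* and *Zfp365*, the lowest null values relative to control were at loci of mixed kind. A peak beside the start of *Gm43445*, a non-coding RNA inside *Lmo4*, which encodes a LIM-only transcription cofactor, was at -0.77 in null, 0.43 in MommeD43-GFP and 0.88 in control cells (chr3:144198301-144199200). Null minus control was -1.65 there, and -1.62 in the non-coding gene *Gm39027* on chromosome 7 (-1.17 in null, -0.10 in MommeD43-GFP and 0.45 in control). A stretch of chromosome 13 with no start within 50 kb (chr13:72967501-72968550) was at -0.99, -0.07 and 0.52. An intron of the cAMP phosphodiesterase gene *Pde8b* was at -1.11 in null, -0.10 in MommeD43-GFP and 0.37 in control cells. The remaining peaks of the lowest 12 were in *1700030F04Rik*, near *Selenos*, which acts in protein quality control of the endoplasmic reticulum, at the olfactory receptor gene *Olfr1339*, near the cytochrome P450 gene *Cyp2a22*, near *Gm24626*, and on chromosome 4 with no gene. Their null minus control values were -1.48, -1.44, -1.42, -1.36, -1.35 and -1.34. Control values of the lowest 12 other than *Depdc1b* were 0.17 to 0.88. Over all eligible peaks the control median was 0.43, with quartiles of -0.09 and 1.41.

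Only a few lowered peaks were tall. Control values were 1 or more at 23 of the 329, between 0.5 and 1 at 57, between 0 and 0.5 at 226 and below 0 at 23. Those were 0.0644%, 0.376%, 0.947% and 0.071% of the eligible peaks in each range of control values. The tallest stood 19941 bp from the predicted miRNA gene *Gm25352* (chr3:5860051-5861100), at 2.88 in null, 3.35 in MommeD43-GFP and 3.91 in control cells (-1.03, SE 0.06), with 368, 500.02 and 627 reads per library. *Depdc1b* and *Pdgfra* came next. The promoter peak of the antisense RNA *9330171B17Rik* was at 1.10 in null, 1.92 in MommeD43-GFP and 2.13 in control cells. An intron of *Camk1d*, which encodes a calcium/calmodulin-dependent kinase, was at 0.97, 1.55 and 1.99, and a peak near the salt-inducible kinase gene *Sik1* was at 0.66, 1.22 and 1.67. Null minus control was -1.02 to -1.03 at *Gm25352* and at these last 3 loci, close to the threshold.

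**Figure D2:**
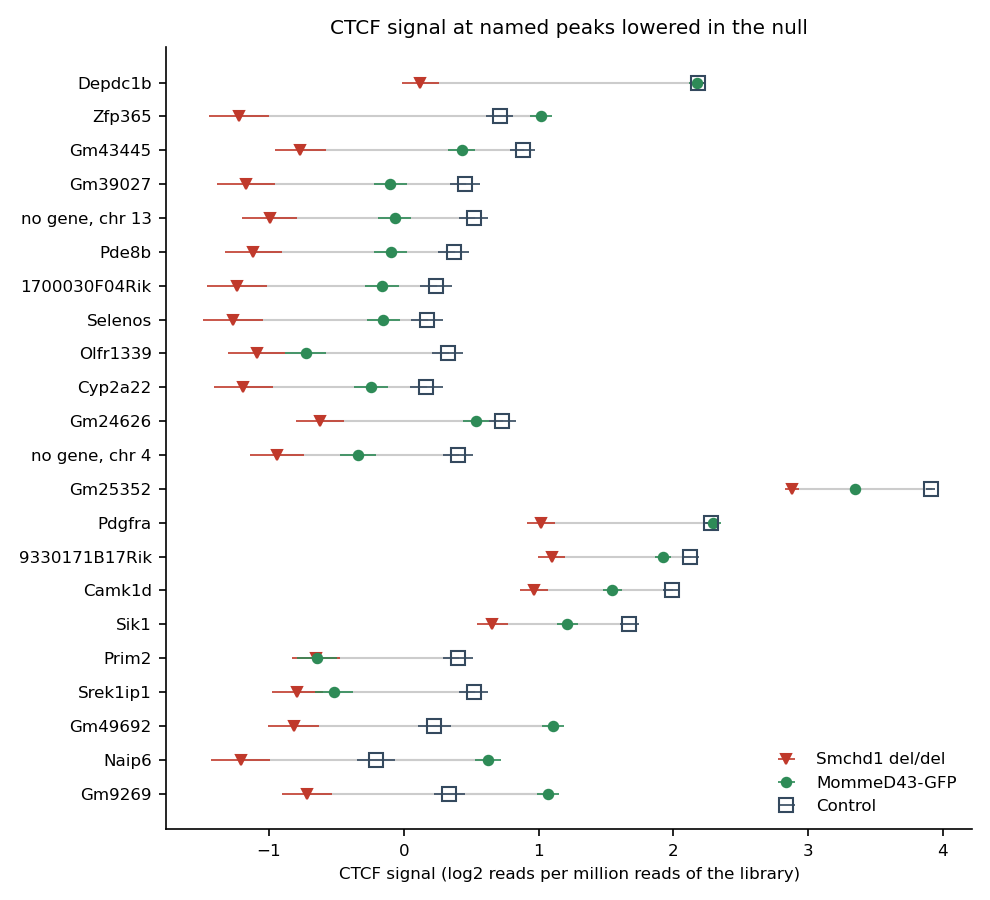
CTCF signal (log2 RPM, x axis) at lowered peaks named by their gene (y axis), with red triangles for *Smchd1* del/del, green circles for MommeD43-GFP and open squares for control. Whiskers are counting SE. The MommeD43-GFP circle lies on the control square at *Depdc1b* (2.17 and 2.18) and *Pdgfra* (2.297 and 2.28), beside the null triangle at *Prim2* (-0.64 and -0.65), and to the right of control at *Gm49692* (1.11 and 0.23).

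The MommeD43-GFP value at the lowered peaks was asked for next. The null and MommeD43-GFP differences use the same control column, and the MommeD43-GFP value also enters the mean of the rule, so the values are set side by side without a test. Over the 329 peaks the median value was -0.86 in null, -0.15 in MommeD43-GFP and 0.24 in control cells. MommeD43-GFP minus control had a median of -0.40 (quartiles -0.56 and -0.26, range -1.05 to 0.88), and over all eligible peaks the median was 0.00. The rule favours peaks with a high control value. With the null set instead against the mean of control and MommeD43-GFP, an alternative chosen after seeing the data, 97 peaks were lowered, their median MommeD43-GFP minus control was -0.12 and 0 were at -1 or lower. On a scale with null at 0 and control at 1, the median lowered peak stood at 0.64 in MommeD43-GFP cells. It was above 0.75 at 95 peaks, between 0.25 and 0.75 at 222, and below 0.25 at 12. The rule chose both ends of this scale, which favours a value between them.

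MommeD43-GFP minus control was at most -1 at 3 lowered peaks, a value met by 0.0551% of all eligible peaks, and at most -0.5 at 109 lowered peaks (33.1%, against 3.89% of all). It was 0 or more at 18 lowered peaks (5.47%, against 49.99% of all). The MommeD43-GFP value was below the null value at 0 of the 329, against 46.6% of all eligible peaks. The rule itself favours this, since it asks for a low null value and sets a floor on the mean of the genotypes. The 3 lowest were *Olfr1339* (-1.09 in null, -0.73 in MommeD43-GFP and 0.33 in control), an intron of *Prim2*, the large primase subunit gene (-0.65, -0.64 and 0.40), and an exon of the splicing-related gene *Srek1ip1* (-0.79, -0.52 and 0.52). Their MommeD43-GFP minus control values were -1.05, -1.05 and -1.03 (SE 0.18 to 0.19).

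The 3 highest stood apart in the other direction. *Gm49692* on chromosome 12 was at -0.82 in null, 1.11 in MommeD43-GFP and 0.23 in control cells. The pseudogene *Gm9269*, whose start lies in a lowered peak of the same stretch (chr12:20274601-20276250), was at -0.72, 1.07 and 0.34. A peak near *Naip6*, of the NAIP family of bacterial sensors, was at -1.21, 0.63 and -0.21. MommeD43-GFP minus control was 0.88, 0.74 and 0.83 at these loci in the order given. The NAIP genes are near-identical copies, where short reads are hard to place.

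**Figure D3:**
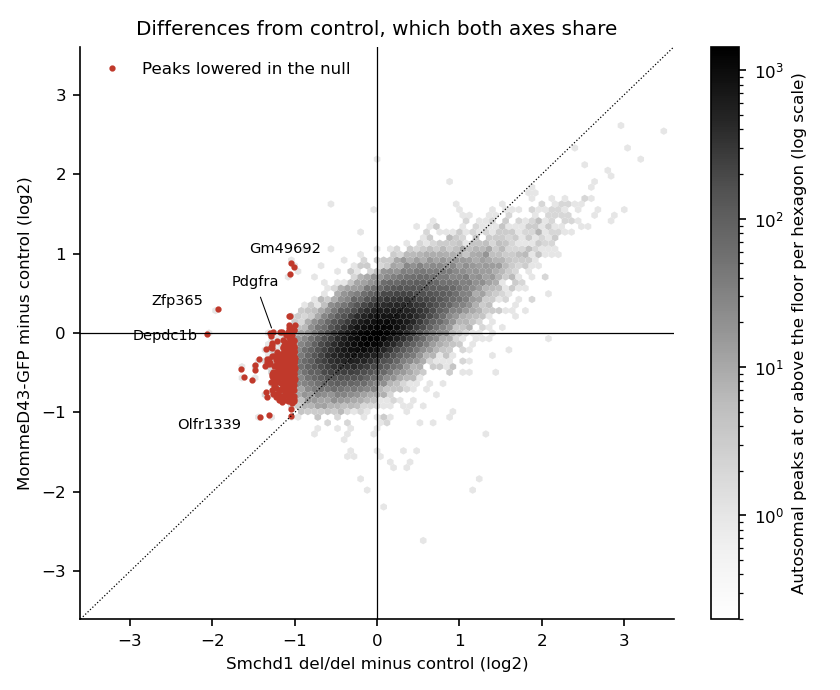
*Smchd1* del/del minus control (log2, x axis) against MommeD43-GFP minus control (log2, y axis), with red points for the 329 lowered peaks and grey hexagons for all 107125 eligible autosomal peaks (darker means more peaks). Both axes subtract the same control value. The red points, chosen for x of -1 or less, run from -1.05 to 0.88 on the y axis with a median of -0.40.

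By location, 48 of the lowered peaks (14.6%) lay within 1 kb of a transcription start, 34 (10.3%) overlapped another exon, 109 (33.1%) lay in introns and 138 (41.9%) were intergenic. Among all eligible peaks the shares were 19.01%, 14.8%, 32.4% and 33.8%. Promoters were more frequent among taller peaks. Of the 257 lowered peaks with a mean below 0 the promoter share was 11.7%, against 10.5% for all peaks of that level, and of the 72 with a mean of 0 or more it was 25%, against 23.2%. Promoter shares were therefore close within each band. The bands do not match level fully, since at 0 or more the median mean was 0.29 in lowered and 0.99 in all peaks. Counting starts of protein-coding genes only, the promoter share of the lowered peaks was 6.99%, against 13.5% of all eligible peaks. It was 5.45% against 5.95% among peaks with means below 0, and 12.5% against 17.3% at 0 or more.

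The 23 peaks at starts of protein-coding genes belonged to genes of several kinds. Beside *Depdc1b* and *Pdgfra* they included *Spag1*, needed to assemble dynein arms of cilia, *Slit1*, an axon guidance ligand, *Synj1*, a phosphatase of synaptic vesicles, *Ppfibp1*, *Il10* and *Ifna15*, both cytokine genes, *Lhb*, a subunit of luteinizing hormone, *Aldh3a2*, a fatty aldehyde dehydrogenase, *Arap1*, *Cryzl2*, *Col6a4*, *Fam213a*, *Scrn1*, *Taf1a*, *Uvrag*, *Wdr47*, *Wdr55*, *Olfr434* and *Olfr1339*. *Spag1* was at -0.12 in null, 1.01 in MommeD43-GFP and 1.16 in control cells, and *Cryzl2* at 0.58, 1.63 and 1.66. *Slit1* was at 0.04 in null, 0.74 in MommeD43-GFP and 1.14 in control cells, and *Il10* at -0.36, -0.15 and 0.66. The values of these 4 were picked after they were seen, to show that MommeD43-GFP was beside control at some promoters and nearer to null at *Il10*.

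The lowered peaks took the names of 300 different genes, and 25 peaks had no start within 50 kb. Protein-coding genes gave the name at 191 peaks (58.1%, against 66.9% of all eligible peaks), processed pseudogenes at 42 (12.8%, against 7.29%), lincRNA genes at 34 (10.3%, against 10.4%) and miRNA genes at 10 (3.04%, against 0.971%). Among peaks with means below 0 processed pseudogenes gave the name to 12.8% of lowered and 8.83% of all peaks. There miRNA genes named 1.17% of lowered (3 peaks) and 0.945% of all peaks. Most of the 10 lowered peaks with miRNA names therefore had means of 0 or more. The miRNA share of all peaks at that level is not given here, so these were not compared within it. A peak overlapped a processed pseudogene itself at 10 of the 329 (3.04%, against 1.48%). Reads at processed pseudogenes can be hard to place, since these are copies of spliced mRNA. The miRNA names include *Mir203*, known from skin, with a peak at -0.38 in null, 0.45 in MommeD43-GFP and 0.72 in control cells, and *Mir1954*, at 0.58, 1.25 and 1.58.

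The length of the lowered peaks went with their level. Their median length was 1050 bp (quartiles 900 and 1200), against 1350 bp (900 and 2100) for all eligible peaks, and 12 of them (3.65%) were longer than 2 kb, against 26.6% of all. The values are not divided by length. For means below 0 the median was 1050 bp in lowered peaks and 900 bp in all peaks, and for means of 0 or more it was 1350 bp and 1800 bp. The longest were near *Rxrg*, which encodes a retinoid X receptor (3000.0 bp, at 0.56 in null, 1.28 in MommeD43-GFP and 1.59 in control), in the centrosomal gene *Cep89* (2700.0 bp) and in *Grip2*, a scaffold of glutamate receptors (2550.0 bp). The shortest, of 750.0 bp, included those near *Selenos* and the complement gene *C6* and in *Chsy1*, a chondroitin synthase gene. Median GC content was 49% in the lowered peaks and 48.2% in all eligible peaks. In the 1469 peaks that met the mirrored rule (null at least 1 above control) it was 41.8%.

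Few lowered peaks held the core of the CTCF motif. The letters searched were CCANNAGNNGGC, on both strands, here called the loose core, and the strict CTCF consensus core, which it contains. The loose core lay in the central 300 bp of 6 lowered peaks (1.82%), against 8.89% of all eligible peaks, 5.62% of all peaks with means from -0.5 to 0, and 23.8% of the peaks raised in null cells. Over the whole peak the shares were 5.17% of lowered peaks (17 peaks), 29.5% of all and 41.7% of raised peaks. The strict core was in the whole peak at 2 lowered peaks (0.608%), against 7.47% of all and 19.1% of raised peaks. Within bands of mean level the shares still differed, but the bands do not match level or length fully. At 0 or more the median mean was 0.29 in lowered and 0.99 in all peaks, with median lengths of 1350 bp and 1800 bp. For means below 0, the whole-peak loose core lay in 5.45% of lowered and 10.6% of all peaks. The strict core lay in 0.389% (1 of 257) and 0.973%, too few lowered peaks to compare. For means of 0 or more, the whole-peak loose core lay in 4.17% of lowered (3 of 72) and 38.8% of all peaks. The strict core was then in 1.39% and 10.7%. The loose core lay in the centre of 1.95% of the lowered peaks with means below 0. At 0 or more the central share was 1.39% of lowered and 10.5% of all peaks. A missing match says only that these letters are absent from the window.

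Sites follow for the lowered peaks with a strict core, or with a loose core in the central 300 bp, because they are exceptions. The core is in capitals, with the strand that reads it. Loose cores farther from the centre are not shown. The strict core lay 73 bases from the centre of the *9330171B17Rik* peak (chr7:79710873-79710924, plus strand) and 449 bases from the centre of the peak in *Peli3*, a Pellino ubiquitin ligase gene (chr19:4934449-4934500, minus strand). Loose cores near the centre were in *Apbb1*, whose product binds the amyloid precursor protein (chr7:105561842-105561893, minus), in *Srrm4*, a neuronal splicing regulator (chr5:116512089-116512140, minus), near *Gm12397* (chr4:40897177-40897228, plus), in *Smyd3*, a lysine methyltransferase gene (chr1:179421856-179421907, plus) and in *Rasgef1b* (chr5:99548124-99548175, minus). The last 3 lines are strict cores in peaks beside the *Pdgfra* and *Zfp365* peaks (chr5:75156352-75156403, chr5:75143393-75143444 and chr10:67859046-67859097, all minus) that were not lowered.
9330171B17Rik: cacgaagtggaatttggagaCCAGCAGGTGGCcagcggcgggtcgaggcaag
Peli3: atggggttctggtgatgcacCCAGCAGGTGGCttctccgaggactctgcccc
Apbb1: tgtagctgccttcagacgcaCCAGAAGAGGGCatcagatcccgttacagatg
Srrm4: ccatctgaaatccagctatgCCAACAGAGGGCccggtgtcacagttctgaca
Gm12397: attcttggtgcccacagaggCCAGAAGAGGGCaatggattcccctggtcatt
Smyd3: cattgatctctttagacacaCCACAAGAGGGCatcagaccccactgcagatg
Rasgef1b: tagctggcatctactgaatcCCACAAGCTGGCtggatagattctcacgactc
Neighbour across the Pdgfra start: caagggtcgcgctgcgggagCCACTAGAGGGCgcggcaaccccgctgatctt
Neighbour before Pdgfra: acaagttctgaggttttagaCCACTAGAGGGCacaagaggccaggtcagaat
Neighbour of Zfp365: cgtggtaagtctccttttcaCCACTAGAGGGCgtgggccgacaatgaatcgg

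The *Peli3* peak was at -0.76 in null, 0.07 in MommeD43-GFP and 0.28 in control cells, and *Srrm4* at -0.96, -0.31 and 0.21. *Apbb1* was at -0.74 in null, -0.20 in MommeD43-GFP and 0.28 in control cells, and *Smyd3* at -0.86, -0.08 and 0.15. The *Apbb1* and *Smyd3* stretches were alike at 39 of 52 bases and were masked as repeat over 100% and 92.3% of their length. The neighbour before *Pdgfra* was at 2.13 in null, 1.81 in MommeD43-GFP and 1.78 in control cells, and the *Zfp365* neighbour at 1.81, 1.58 and 1.18, so both peaks were higher in null than in control.

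Other short motifs were searched in the central 300 bp on both strands. An E-box (the letters CAGGTG on either strand, the palindrome CAGCTG, or the further palindrome CACGTG) lay in 50.8% of lowered peaks, against 42.6% of all eligible peaks and 30.8% of raised peaks. The YY1 letters AANATGGC lay in 9.12%, against 5.98% of all and 6.19% of raised peaks. AP-1 sites (TGACTCA on either strand) lay in 3.04% of lowered and 5.66% of all peaks, SOX letters (ACAAAG, or else the variant ACAATG) in 31.0% and 32.4%, and the GC box (GGGCGG) in 5.78% and 6.21%. The E-box and AP-1 contrasts changed with level. For means below 0 an E-box lay in 52.9% of lowered and 44.5% of all peaks, and at 0 or more in 43.1% and 41.7%. AP-1 sites lay in 1.95% and 6.05% below 0, and in 6.94% (5 of 72) and 5.48% at 0 or more. Median GC content also differed between lowered (49%) and raised peaks (41.8%). These shares are descriptions of sequence, not of factors bound.

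**Figure D4:**
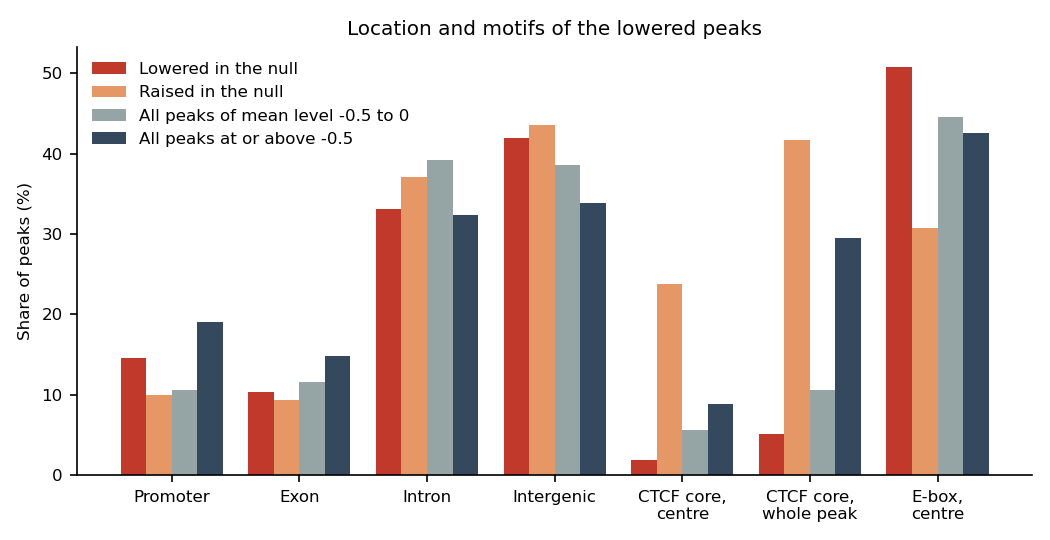
Share of peaks (%, y axis) in each location class, with the loose CTCF core and with an E-box (x axis), with red bars for the 329 lowered peaks, orange for the 1469 raised in null cells, grey for all peaks with means from -0.5 to 0 and dark for all eligible peaks. The loose CTCF core in the central 300 bp has a red bar of 1.82%, beside 23.8%, 5.62% and 8.89%, and the red promoter bar is at 14.6%, beside 9.94%, 10.5% and 19.01%.

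Lowered peaks were scattered over the genome. Per 1000 eligible peaks there were between 1.68 (chromosome 18) and 4.24 (chromosome 7), and the most on any chromosome were the 31 each of chromosomes 5 and 7. Within 500 kb of another lowered peak lay 46 of them, as 23 pairs and no larger group. At 1 Mb there were 6 groups of 3 or more, and the largest, of 4 peaks each, were on chromosome 7, around *Cep89* and *Gm25247* and around *Selenos*, *Chsy1*, *Adamts17* and *Gm39027*. The other 4 held *Smyd3*, *Cux2*, *Cox10* and *Tada2a*. *Smyd3*, *Myo1e*, *Ppfibp1* and *Gm25247* each gave their name to 2 peaks. The 658 peaks directly next to a lowered peak included no lowered peak, and had a median null minus control of -0.08, against -0.04 for all autosomal peaks. Of these neighbours 17.0% were at -0.5 or lower, against 13.9% of all.

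In gene groups tied to NSCs or to SMCHD1 lowered peaks were few, as among all eligible peaks (0.307%). Of 322 eligible peaks at NSC genes and 335 at neuronal genes, 0 were lowered, and likewise 0 of 21 at genes of microglia, vessels and mesenchyme, 0 of 39 at CTCF and cohesin genes and 0 of 50 at polycomb genes. Of 41 peaks at astrocyte and oligodendrocyte genes 1 was lowered (*Pdgfra*), and of 112 at cell division genes 1 (*Depdc1b*). Of 345 peaks in 22 gene clusters and imprinted regions 3 were lowered, and none of these was in a *Hox* or protocadherin cluster. They were an exon of the potassium channel gene *Kcnq1* (-1.12 in null, -0.14 in MommeD43-GFP and 0.10 in control), a peak by the imprinted growth regulator *Grb10* (-0.99, -0.17 and 0.20) and a peak by the imprinted zinc finger gene *Plagl1* (-0.92, -0.51 and 0.11). Olfactory receptor genes held 3 of 382 (*Olfr1339*, *Olfr434* and *Olfr56*), vomeronasal receptor genes 1 of 121 (*Vmn2r96*), *Zfp* genes 2 of 958 (*Zfp365* and *Zfp3*), *Pcdh* genes 0 of 104 and keratin genes 0 of 96. ChIP-seq of CTCF does not measure RNA, so the cell type was not checked against expressed markers.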

How the data were processed

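CTCF ChIP-seq reads (75 bp, single-end) came from the authors, who used Trim Galore 0.4.4 together with cutadapt 2.9 for trimming, FastQC 0.11.8 for quality control, and Bowtie2 2.3.4.1 plus SAMtools 1.7 for alignment to GRCm38. They extended reads by 180 bp, called peaks per genotype in SeqMonk and joined those that overlapped. The deposited values are on a log2 scale: reads over the peak per M of library reads, averaged by the authors over the libraries of a genotype and not divided by peak length. The submitters' processing notes name build GRCm38.p5, whose chromosomes share coordinates with the GRCm38.p6 sequence used here. Duplicate removal was not given in the sources used here.

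Differences of the 3 pooled columns were taken with no test. Reads per library were decoded from the steps between the lowest values (0 reads entered as 0.9, tolerance 0.01), and the counting SE followed from them. Peaks took GENCODE M21 names: a gene start within 1 kb, else an overlapping gene, protein-coding first, else the nearest start within 50 kb. Clusters were taken with 20 kb on each side. Motifs were searched on both strands, in the central 300 bp or the whole peak (CTCF, NFI, E-box, AP-1, CRE, GC box, ETS, NRF1, YY1 and SOX). Named peaks are the 12 lowest null minus control, the 6 tallest in control, the 3 highest and 3 lowest MommeD43-GFP minus control, the 3 longest and 3 shortest, those in the gene lists (some genes are not reported here), those at each edge of the rule and those with a strict core. The loose core sites, the members of 1 Mb groups, the miRNA names and the 3 loci shown were chosen after their values were seen. The lowered peaks, gene lists and motifs were chosen with earlier results of these data known. Alternatives changed the threshold, floor, scaling, GC content, chromosomes, length, promoter distance, motif and grouping distance. The procedure was tested on simulated data with read-counting noise only. The planted changes were larger than most differences seen here, at peaks taller than most lowered peaks. Recovery of weak peaks near the threshold was not tested. Tables were handled with pandas 2.3.3 and numpy 2.4.6 in Python 3.11.15, intervals with scipy 1.17.1 and plots with matplotlib 3.10.9.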

Additional observations from a re-analysis of the deposited data

How the results depend on the processing

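The number of lowered peaks, 329 as reported, was 5966 at a 1.5-fold threshold, 4 at 3-fold, 1108 with the floor at -1, 72 with it at 0, 204 with columns centred on their medians, 169 with a running median on level subtracted, and 97 with the null set against the mean of control and MommeD43-GFP, an alternative chosen after seeing the data. In that last alternative the median of MommeD43-GFP minus control was -0.12, 0 peaks were at -1 or lower and the promoter share was 21.6%. The median, -0.40 as reported, was negative in every alternative run, at -0.32 (1.5-fold), -0.23 (3-fold), -0.34 (floor 0), -0.46 with GC content centred in bins and -0.46 with the level taken from control and null. Each alternative still favoured peaks with a high control value, which this median subtracts. The choice itself thus favours a negative sign, and its constancy is no separate support. The peaks with MommeD43-GFP minus control at most -1, 3 as reported, numbered 14 (1.5-fold), 0 (3-fold), 27 (floor -1), 0 (floor 0), 8 (GC) and 7 (level from control and null). The promoter share was 50% at 3-fold (4 peaks), 10.9% with the floor at -1, 25% with it at 0 and 6.99% with protein-coding starts. Median length was 1200 bp at 3-fold, 750 bp with the floor at -1 and 1350 bp with it at 0. The share with the loose core was 0% at 3-fold, 4.04% with GC bins centred, 0.304% with the strict core and 5.17% over the whole peak. Lowered peaks near another numbered 22 at 200 kb and 94 at 1 Mb, against 46 at 500 kb.

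No paired analysis was possible because the table gives 1 pooled value per genotype, and leaving out a library was not possible either. Most lowered peaks sat just past the threshold with about 27.5 reads per library in null and 49.3 in control cells, so which peaks are counted moves with scaling. The spread between lines is unknown.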

Other observations

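On the X chromosome, outside the autosomal rule, 19 of 2830 peaks at or above the floor met its other parts. The lowest was at the promoter of *Slc6a14*, an amino acid transporter gene, at -1.23 in null, -0.54 in MommeD43-GFP and 0.43 in control cells. A peak near *Gm4908* followed, at -1.21, -0.07 and 0.21. Of 217130 autosomal peaks, 107125 lay at or above the floor. Among the rest, below the floor, 3618 were at least 2-fold lower in null than in control cells. Their medians were -2.06 in null, -1.255 in MommeD43-GFP and -0.82 in control cells, with a median length of 450 bp and a median counting SE of 0.34 for null minus control. MommeD43-GFP minus control had a median of -0.47 there.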
